A study of Mus musculus with 2 samples.

Results

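The serpins are a family of serine protease inhibitors and their non-inhibitory relatives, described here across liver RNA from mice on either of a pair of olive oil diets. Members were all probe sets whose platform annotation gives a single symbol that starts with Serpin, except Serpinc1. The rule found 38 probe sets of 29 genes, out of 20380 probe sets of 12393 genes with a single symbol. They fall into 8 genes of clade A, 14 of clade B, 2 of clade F, 2 of clade I and 1 each of clades D, G and H, where the clade is the letter in the gene symbol. Serpins whose symbol lacks the prefix, such as angiotensinogen, are not members. RefSeq's gene table (assembly GRCm38.p6) lists 62 protein-coding genes under the same rule, so 33 of them, among them Serpina3k and Serpina7, were not analysed here.

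All mice lacked apolipoprotein E, the lipoprotein ligand whose absence gives mice a high plasma cholesterol, and all ate a high-fat diet. One Affymetrix array, called the orujo array here after its sample title, held liver RNA of mice given that diet with added unsaponifiable fraction of olive oil, the minor components that are not fatty acid esters. The second, called the olive array, held liver RNA of mice given it with added olive oil. Sex, age, strain background and the number of mice behind each array were not stated in the labels. With 1 array per diet there was no test and no error between animals, and every difference below is between these arrays.

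A serpin inhibits by offering an exposed loop to the protease as bait. The protease cuts the loop, the serpin folds around the cut, and enzyme and inhibitor end as an inactive covalent complex that is cleared from blood. The liver secretes most of the plasma serpins, among them the extracellular clade A inhibitors and the regulators of clotting, fibrinolysis and complement. Clade B serpins mostly act inside cells, and several members outside these roles carry hormones or assist collagen folding.

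Each value is the brightness of a probe set in arbitrary units, on a linear scale. Both arrays had the same 2% trimmed mean (100.05), and the pooled median of both, 35.6 after scaling, served as the floor above which a signal was read. A gene was called measured if its brightest probe set lay above the floor on both arrays. Log2 ratios are given as the orujo array minus the olive array. Over 1453 genes with exactly 2 measured probe sets, the ratios of the pair differed with an SD of 0.44, which puts the noise of a single probe set at 0.31, and at 0.21 for 129 genes with signals of at least 500. This noise is technical only. Hepatocyte markers checked the labelled tissue: 10 of 10 with a probe set were measured, with a median log2 ratio of 0.09.

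Of the 29 serpin genes, 14 were measured and 15 lay under the floor on both arrays, and none crossed it on only 1 array. Of all 12393 genes, 6640 were measured and 4775 lay under it on both arrays. A further 394 crossed it only on the orujo array and 584 only on the olive array. The floor is the pooled median, so many genes of any kind fall under it. Serpina3n was at least 2-fold higher on the orujo array, 1 of 14, where 1.36% of all 6640 measured genes were. The count at least 2-fold lower was 0 of 14, where 0.979% of all measured genes were. With a limit of 1.5-fold, Serpina10 and Serping1 joined it (3 of 14, against 5.57% of all measured genes) and 0 of 14 were lower, against 5.56%. Among the 793 measured genes with signals of at least 500 on both arrays, 2.52% were at least 2-fold and 6.43% at least 1.5-fold higher. All 3 serpins were among the 9 members at that brightness. The other 11 members stayed below 1.5-fold, and 10 of the 14 lay within the noise of 0.31. With 0.21 in its place for the 9 bright members, 8 of the 14 did, since Serpina1c and Serpinf2 then lay outside. The median log2 ratio of the measured members was −0.05, against −0.02 for all measured genes.

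**Figure D1:**
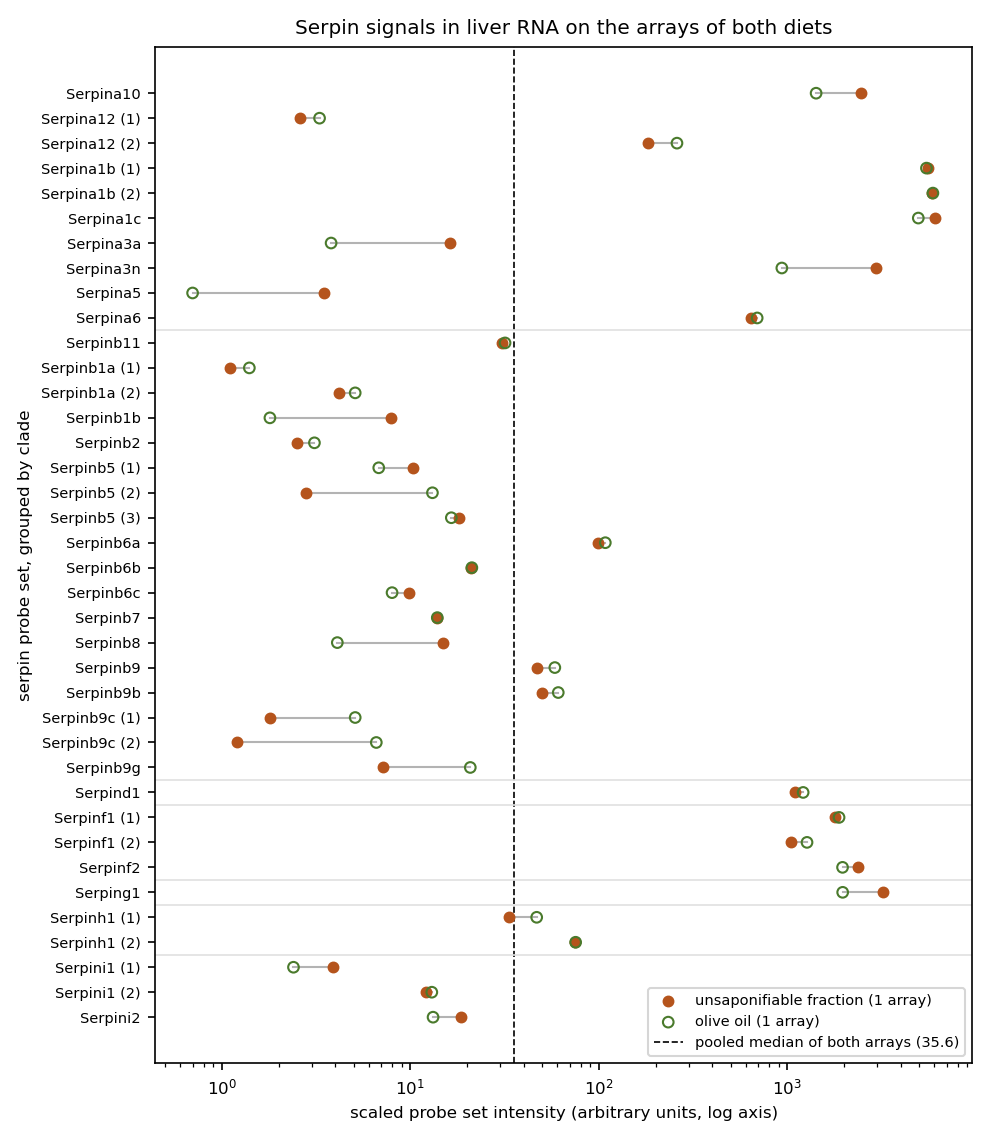
Scaled intensity (arbitrary units, log axis) of each of the 38 serpin probe sets on the orujo array (filled) and the olive array (open), grouped by clade, with the floor of 35.6 dashed; probe sets of 1 gene are numbered in the order of their identifiers. Most of clade A and the members of D, F and G lie right of the floor, most of clade B and all of clade I left of it, and Serpina3n shows the widest gap right of it, from 934 to 2963.

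The promoters of 4 clade A genes are shown because they hold the contrast in the family: Serpina3n, its subfamily member Serpina3a, which lay under the floor, and the near-identical pair Serpina1b and Serpina1c, whose signals differed little between the diets. Each is the 250 bases before the annotated start in RefSeq's GRCm38.p6 annotation, 5′ to 3′ on the gene's own strand. Capitals mark matches on either strand to TTCNNNGAA (STAT), TTNNGNAA (C/EBP), GTTAAT (a half-site of HNF1) or TATAAA (the TATA box). The windows lie at chr12:104406458-104406707 on the plus strand, chr12:104112474-104112723 on the plus strand, chr12:103738190-103738439 on the minus strand and chr12:103904951-103905200 on the minus strand.
Serpina3n: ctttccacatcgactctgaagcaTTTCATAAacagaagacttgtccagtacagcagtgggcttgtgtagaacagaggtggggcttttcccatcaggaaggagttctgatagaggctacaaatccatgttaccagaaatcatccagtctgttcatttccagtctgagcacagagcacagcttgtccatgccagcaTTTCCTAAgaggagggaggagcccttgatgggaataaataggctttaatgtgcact
Serpina3a: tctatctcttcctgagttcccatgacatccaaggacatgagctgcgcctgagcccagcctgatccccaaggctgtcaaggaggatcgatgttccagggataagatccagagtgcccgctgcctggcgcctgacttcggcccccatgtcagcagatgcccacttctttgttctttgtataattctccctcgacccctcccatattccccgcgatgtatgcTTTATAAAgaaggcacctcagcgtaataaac
Serpina1b: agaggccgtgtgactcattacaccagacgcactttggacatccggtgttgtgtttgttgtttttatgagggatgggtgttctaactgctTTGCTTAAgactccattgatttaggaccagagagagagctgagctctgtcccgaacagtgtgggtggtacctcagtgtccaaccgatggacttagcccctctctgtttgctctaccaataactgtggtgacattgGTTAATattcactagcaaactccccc
Serpina1c: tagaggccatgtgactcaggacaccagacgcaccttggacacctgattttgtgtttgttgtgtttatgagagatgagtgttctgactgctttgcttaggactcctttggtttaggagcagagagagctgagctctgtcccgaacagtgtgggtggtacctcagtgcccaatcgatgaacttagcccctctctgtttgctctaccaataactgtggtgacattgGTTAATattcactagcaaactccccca

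The Serpina3n window held 2 C/EBP matches, TTTCATAA at 227 to 220 and TTTCCTAA at 56 to 49 bases before the start. The Serpina3a window held none of these, and a TATA match at 29 to 24 bases that overlaps another on the reverse strand at 31 to 26. Serpina1b and Serpina1c shared 229 of 250 bases (91.6%), including GTTAAT near the start. The C/EBP match of Serpina1b, TTGCTTAA, had no counterpart in Serpina1c. Serpina3n and Serpina3a shared 52.8% by the same global alignment, close to the 54.4% between Serpina3n and Serpina1b. Of all 32851 RefSeq windows of this length, 36.8% held a C/EBP match, 7.02% a STAT match, 6.43% the HNF1 half-site and 12.4% the TATA box. The measured genes Serpina10, Serping1 and Serpina6, and Serpinb1a under the floor, had no window here. Of 25 member genes with a window, C/EBP letters occurred in 7 of 11 measured genes and in 8 of 14 under the floor. A STAT match occurred in 1 and 2 of them, the HNF1 half-site in 2 and 2, and the TATA box in 0 and 4. These counts are of genes with a match in any of their windows (28 windows for 25 genes), while the percentages are of single windows. A match describes letters in a window and is not a binding site.

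Clade A holds the inhibitors of the α1-antitrypsin and antichymotrypsin type. Its largest difference was in Serpina3n, a plasma inhibitor related to human α1-antichymotrypsin that blocks neutrophil and cytotoxic granule proteases and is known as an acute phase protein of mouse liver. Its single probe set had a scaled signal of 2963 on the orujo array and 934 on the olive array. That is 3.17-fold higher with a log2 ratio of 1.66, which is 5.3 times the noise of a single probe set. Of the other measured genes, 19 had a higher ratio and 6620 a lower one. The Serpina3 subfamily has 10 protein-coding genes in the RefSeq table and 2 of them were members here. Whether the probe set also reads its paralogs was not tested. Serpina3a, the other, was listed at 16.2 and 3.8, both under the floor.

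Serpina10 encodes the protein Z-dependent inhibitor, which blocks factor Xa on membranes. Its signal was 2453 on the orujo array and 1420 on the olive array, a 1.73-fold higher value (log2 ratio 0.79), from 1 probe set with a suffix for sequence that other transcripts share. F10, which encodes factor X, had a log2 ratio of 0.54, and 0.76 to 0.95 in its other measured probe sets. F11, which encodes another clotting protease, was at −0.01. Serpina10 thus stood clear of the probe set noise and below 2-fold.

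Serpina1b and Serpina1c encode α1-antitrypsins, the main plasma inhibitors of neutrophil elastase. Serpina1c had a signal of 6058 on the orujo array and 4947 on the olive array, a log2 ratio of 0.29. Serpina1b had 5823 and 5914, a log2 ratio of −0.02, and its second probe set had 5565 and 5465, a ratio of 0.03. Serpina1b lay within either noise value, and Serpina1c lay within 0.31 but above the 0.21 of bright genes. These signals are at the upper end of the arrays, where only 44 and 28 probe sets exceeded 5000, and whether they still follow RNA abundance there was not tested. Both probe sets of Serpina1b carry the suffix for sequence shared with other transcripts, so the paralogs cannot be told apart with certainty.

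The hormone carrier and the adipokine of clade A were not higher. Serpina6 encodes corticosteroid-binding globulin, which carries glucocorticoids in blood and does not inhibit proteases. Its signal was 641 on the orujo array and 691 on the olive array (log2 ratio −0.11, within the noise). Serpina12 encodes vaspin, which inhibits a tissue kallikrein and is known as an adipokine. It had a signal of 183 on the orujo array and 260 on the olive array. This ratio of −0.50 was the lowest of the family, 1.6 times the noise, and its second probe set was listed at 2.6 and 3.3. Serpina5, the protein C inhibitor, which in mice is mainly a protein of the reproductive tract, was listed at 3.5 and 0.7.

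The 6 measured genes of clade A had a median log2 ratio of 0.13, with 3 positive and 3 negative ratios. This median turned to −0.01 under quantile normalization and was −0.02 without Serpina3n, a choice made after seeing the data. All clade A members lie in 1 block of serpin genes on chromosome 12 of the RefSeq assembly. In the order of that block they are Serpina10, Serpina6, Serpina1b, Serpina1c, Serpina12, Serpina5, Serpina3a and Serpina3n. The 2 genes with the highest ratios, Serpina10 and Serpina3n, are the first and the last serpins of the block. Beyond Serpina3n lie Gsc, under the floor, Dicer1 at −0.56 and Clmn at 0.11.

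**Figure D2:**
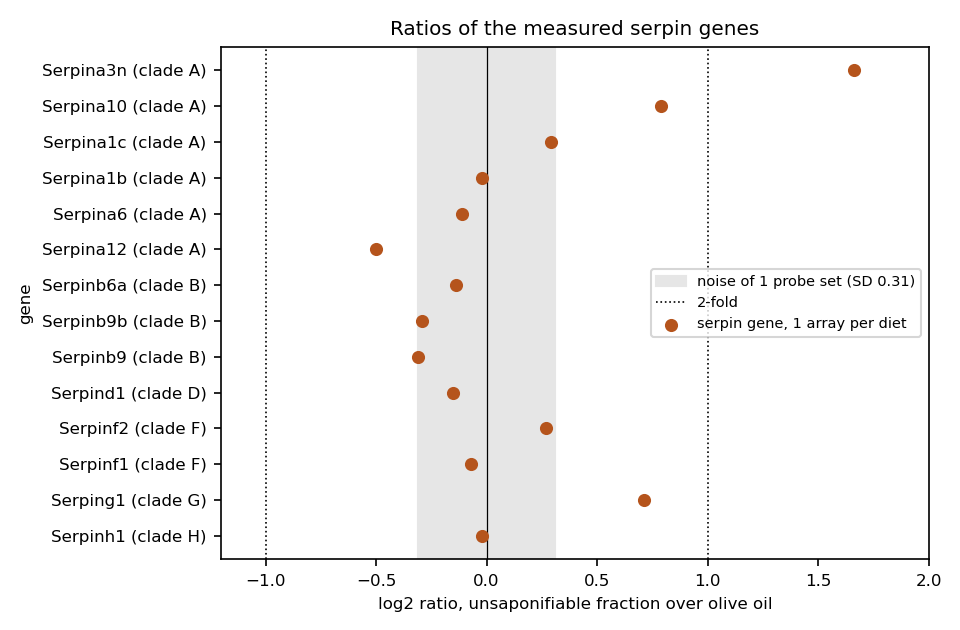
Log2 ratio of the orujo array over the olive array for the 14 measured serpin genes, 1 point per gene, ordered by clade; the grey band is the noise of a single probe set (SD 0.31) and dotted lines mark 2-fold. Serpina3n at 1.66 passes 2-fold, Serpina10 at 0.79, Serping1 at 0.71 and Serpina12 at −0.50 lie outside the band, and the other 10 lie inside it.

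The members of clades D, F and G, which apart from Serpinf1 inhibit proteases of clotting, fibrinolysis or complement, were measured without exception. Among them Serping1 stood out. Serping1 encodes C1 inhibitor, which blocks the complement proteases C1r, C1s and the MASPs and the contact proteases kallikrein and factor XII. It had a signal of 3222 on the orujo array and 1965 on the olive array, a 1.64-fold higher value with a log2 ratio of 0.71 from its 1 probe set. Of its targets, C1ra was at 0.45 and C1s1 at 0.55, Masp1 at −0.18 and Masp2 at 0.13, while Klkb1, prekallikrein, was at −0.35 and F12 at 0.01. These targets had no common direction.

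Serpinf2 encodes α2-antiplasmin, the fast inhibitor of plasmin. Its signal was 2365 on the orujo array and 1961 on the olive array (log2 ratio 0.27), the same ratio as Plg, which encodes plasminogen. Serpind1 encodes heparin cofactor II, which inhibits thrombin. It had 1091 and 1212 in the same order (−0.15), while the thrombin gene F2 was at 0.20. Serpinf1 encodes pigment epithelium-derived factor, a secreted protein that inhibits no protease and binds the triglyceride lipase encoded by Pnpla2. It had 1790 and 1880 (−0.07), and −0.28 in its second probe set, while Pnpla2 was 2.41-fold higher. All 3 lay within the noise of 0.31, while Serpinf2 and the second probe set of Serpinf1 lay above the 0.21 of bright genes.

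Serpinh1 encodes HSP47, a chaperone of the endoplasmic reticulum that binds procollagen and is induced by heat shock. Its signal was 74.3 on the orujo array and 75.3 on the olive array, a log2 ratio of −0.02, from a probe set with the suffix for shared sequence. Its second probe set was at 33.3 and 46.8, above the floor only on the olive array and at least 1.31-fold higher there. That probe set has the suffix _a_at, which was grouped here with the suffixes for shared sequence. Heat shock factor targets had 12 measured genes with a median log2 ratio of −0.64, and 11 of them were negative. At least 2-fold lower were 3, or 1 without probe sets of shared sequence, where 0.979% of all measured genes were. The lowest were Hspb1 at −2.46, Hsph1 at −1.47 and Hspa1b at −1.45, and the highest was Hspd1 at 0.18. Collagens and the enzymes that process them, the clients and partners of HSP47, had a median of 0.05 over 16 genes. Col5a2 was highest at 1.14, P4ha1 lowest at −1.16 with −0.17 in its other probe set, Col3a1 was at 0.72 and Col4a2 at 0.64.

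**Figure D3:**
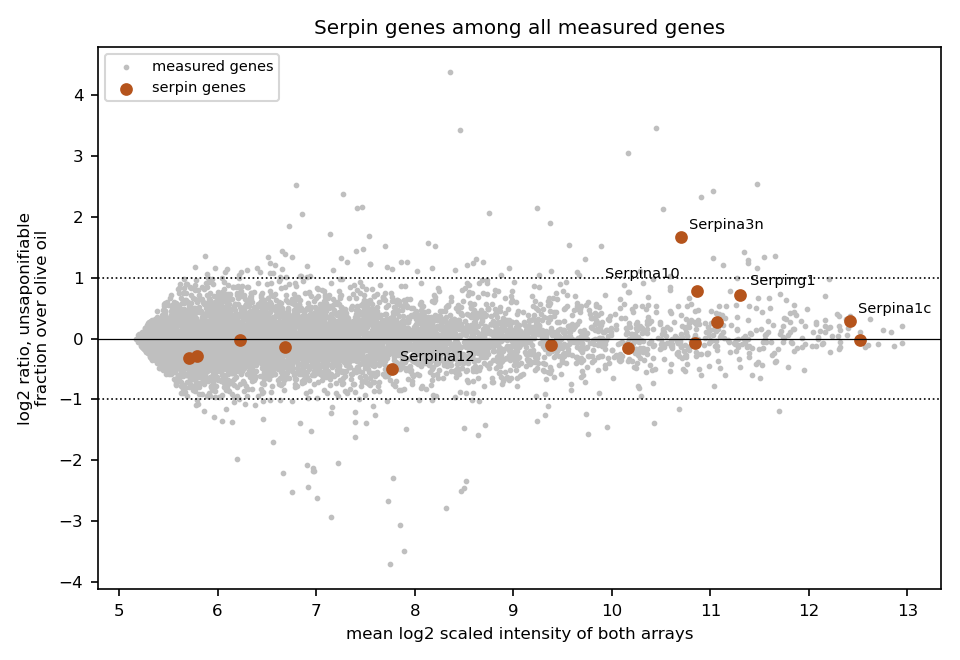
Log2 ratio against mean log2 scaled intensity for all 6640 measured genes (grey) and the 14 serpin genes (coloured), with dotted lines at 2-fold. The 9 brightest serpins lie at the right, where Serpina3n stands above 2-fold at 1.66, and the dimmest, Serpinb9 and Serpinb9b of clade B, lie near the floor at −0.31 and −0.29.

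Clade B serpins act mostly inside cells, where they guard against leaked lysosomal and granule proteases. Of 14 genes, 3 were measured, all with lower signal on the orujo array and all within the noise of 0.31. Serpinb6a, an inhibitor of cathepsin G, had 98.4 on the orujo array and 108 on the olive array (log2 ratio −0.14), also from a probe set with the suffix _a_at. Serpinb9, an inhibitor of granzyme B, had 47.1 and 58.4 (−0.31), and its relative Serpinb9b 50 and 60.9 (−0.29). The signals of Serpinb9 and Serpinb9b lie close to the floor of 35.6. The markers of cytotoxic lymphocytes, the cells whose granules hold granzyme B, were mostly under it: of 11 with a probe set 1 was measured and 9 were under the floor on both arrays. Their summed signal was 207 on the orujo array and 218 on the olive array, none listed at 0. Most of it comes from values under the floor, so no direction is read from it. Fewer cells of a type and less RNA per cell cannot be told apart in whole liver RNA.

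The 15 genes under the pooled median on both arrays have no ratio. They were Serpina3a and Serpina5 of clade A, Serpinb1a, Serpinb1b, Serpinb2, Serpinb5, Serpinb6b, Serpinb6c, Serpinb7, Serpinb8, Serpinb9c, Serpinb9g and Serpinb11 of clade B, and Serpini1 and Serpini2 of clade I. Their 20 probe sets ranged from 1.1 to 30.8 on the orujo array, with a median of 8.85, and from 0.7 to 31.8 on the olive array, with a median of 6.7. Serpinb11 was the nearest to the floor, at 30.8 and 31.8. Serpinb1a, an inhibitor of neutrophil elastase, was listed at 1.1 and 1.4 in 1 probe set and at 4.2 and 5.1 in the other. Neutrophil markers were partly above the floor: of 13, 5 were measured, 5 were above it only on the orujo array and 3 on neither. Their summed signals of 521 and 440 include values under the floor. The 5 measured markers had 1 positive and 4 negative log2 ratios, with a median of −0.11 and Mmp9 lowest at −1.0. Serpini1 encodes neuroserpin, the brain inhibitor of tissue plasminogen activator, and was listed at 3.9 to 12.1 and 2.4 to 13. Serpini2, a serpin known from the exocrine pancreas, was listed at 18.6 on the orujo array and 13.2 on the olive array. No direction is read from values under the floor. Exocrine pancreas markers had a summed signal of 1132 against 7203 over 17 genes and 12 of 12 measured ones at least 2-fold lower. With the floor at the pooled 25th percentile (11.8), 6 of the 15 genes became measured. Their log2 ratios ran from −0.10 to 0.50, with 0 past 2-fold. A further 3 lay above it on 1 array only, Serpina3a and Serpinb8 on the orujo array and Serpinb9g on the olive array.

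The list of proteases that serpins act on had 35 genes with a probe set, of which 21 were measured. Their median log2 ratio was 0.20 and 13 were positive. That is 61.9%, against 47.5% of all measured genes and 52.0% of those with signals of at least 500 on both arrays. The list also holds F13b, which encodes no protease and was at 0.31. Ctsl, which encodes the lysosomal protease cathepsin L, was the single gene past 2-fold, with 3317 on the orujo array and 1319 on the olive array (2.51-fold higher), from a probe set with the suffix for shared sequence, without which 0 passed. Klkb1 was lowest at −0.35, and C1s1 and F10 followed Ctsl. The leukocyte proteases Ctsg, Gzma, Gzmb and Gzmm were under the floor on both arrays, Elane was at 0.34 with signals of 58.2 and 46.0, and Prtn3 was above the floor only on the orujo array, at least 1.39-fold higher. The proteases named beside their inhibitors above were picked after their values were seen, apart from Klkb1, C1s1 and F10.

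Protease inhibitors of other families had a median of 0.30 over 20 measured of 31 genes, with 15 positive ratios. Slpi, an inhibitor of neutrophil elastase made at mucosal surfaces and by macrophages, had 147 against 73.0 (2.01-fold higher). Itih4 and Itih3, heavy chains of the inter-α-inhibitor family, were at 0.98, from a probe set of shared sequence, and 0.73. Both also stand in the list of acute phase genes below. Timp2, an inhibitor of matrix metalloproteases, was lowest at −0.47, with −0.23 to 0.41 in its other probe sets. A list of clearance receptors, clotting cofactors and other related genes, not all of which act on a serpin, had a median of 0.03 over 11 genes. Pros1, which encodes protein S, was 3.23-fold and Pnpla2, from a probe set of shared sequence, 2.41-fold higher, Thbd was at 0.89, and Asgr2 was lowest at −0.36. Lrp1, the endocytic receptor of serpin and protease complexes, was at −0.08.

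JAK-STAT3 and C/EBP genes carry the cytokine signal that drives acute phase serpins in hepatocytes. Of 16 genes, 13 were measured, with a median of 0.38, 10 positive ratios, and 3 at least 2-fold higher. Of all measured genes, 47.5% had positive ratios and 1.36% were at least 2-fold higher. Cebpd, a C/EBP factor, had 142 on the orujo array and 59.8 on the olive array (2.37-fold higher). Lifr, a cytokine receptor chain, was 2.24-fold higher from a probe set of shared sequence (log2 ratio 0.58 in its other probe set). Jak2, a receptor kinase, was 2.14-fold higher. Stat3 was at 0.50, also from a probe set of shared sequence, with −0.63 to 0.26 in its other probe sets. The count of 3 was 1 with the floor at the pooled 75th percentile and 1 with log2(value + floor). Cebpa was lowest at −0.39, and Socs3, a feedback inhibitor, was above the floor only on the orujo array, at least 1.44-fold higher. Acute phase genes had a median of 0.70 over 25 measured of 26, with 23 positive ratios, 9 at least 2-fold higher and a summed signal of 95359 against 51358. Of the 25, 13 were at least 1.5-fold higher and 2 had negative ratios, from Saa4 at −0.35 to Orm2 at 4.39. On the same arrays 2 of the 3 control probe sets for 18S ribosomal RNA were at 2.54 and 2.48. The part of the acute phase difference or of the 18S difference in the serpin ratios was not tested. Genes of steroid and thyroid hormone action, the surroundings of Serpina6, had a median of 0.10 over 12 genes and 0 past 2-fold. They ran from Thrb at −0.83 and Per1 at −0.65 to Tsc22d3 at 0.40 and Fkbp5 at 0.48. The Tsc22d3 value came from a probe set of shared sequence, with −0.18 to 0.11 in its other probe sets. Fkbp5 was at 0.3 in its other probe set.

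**Figure D4:**
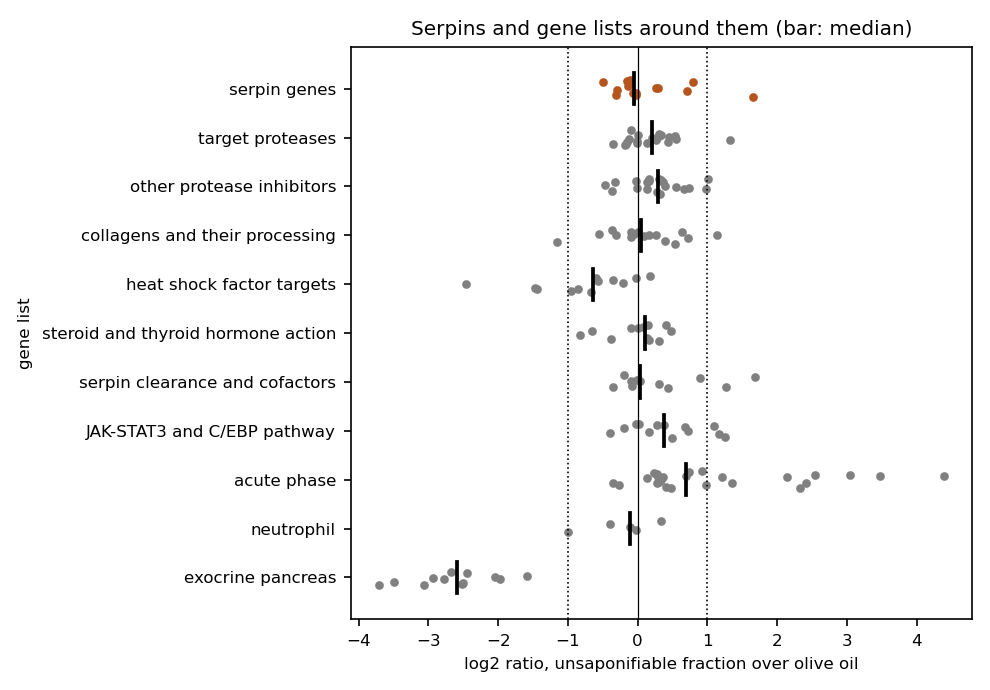
Log2 ratio of each measured gene (points, spread vertically for sight) in the serpin family and in gene lists around it, with the list median as a bar and dotted lines at 2-fold. The serpin median of −0.05 lies between the lists of target proteases (0.20) and heat shock factor targets (−0.64), and Serpina3n at 1.66 lies within the range of the acute phase list, whose median is 0.70. Genes such as Itih3 and Itih4 stand in more than a single list.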

How the data were processed

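Each array held liver RNA from mice on 1 diet. The deposited table gives a linear intensity for each probe set, already scaled by the authors to a common trimmed mean, as the values show. Per the labels, targets followed the manufacturer's standard procedure; no label names the summary software, detection calls or genome build (these were not given in the sources used here). In all, 64 control probe sets were set apart, and each array was scaled to the mean 2% trimmed mean. Values were floored at the pooled 50th percentile, and log2 was taken (Python 3.11.15, numpy 2.4.6, pandas 2.3.3). A gene was read from its brightest probe set. Symbols came from the platform annotation: 691 probe sets had several and 1555 none, and were named for no gene. All 38 member probe sets matched RefSeq by Entrez identifier with the same symbol.

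An array has no read depth; the number of arrays limits the precision. Calls are folds of at least 2, with no test. Named were all serpins, and from each list the highest, the lowest, up to 2 others by size and any past 2-fold; others were picked after their values were seen. Members and lists were chosen with earlier results of these data known. The calculation was tested on simulated data. Alternatives were scaling (none, median centring, quantile, loess with a span of 0.4 in statsmodels 0.14.6), log2(value + floor), a floor at the 25th or the 75th percentile, averaging probe sets, leaving out shared-sequence probe sets, and limits of 1.5-fold and 3-fold.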

Additional observations from a re-analysis of the deposited data

How the results depend on the processing

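With 1 array per diet no array could be left out and no paired analysis was possible because each diet has a single array. Serpina3n stayed between 1.59 and 1.68 over its 9 alternatives in scaling, floor, pseudocount and probe sets, Serpina10 between 0.68 and 0.81 over 8, Serping1 between 0.58 and 0.73 over 9, and Serpina12 between −0.51 and −0.43 over 9. The count of members past the limit on the higher side was 3 with a limit of 1.5-fold. The count of genes under the floor on both arrays fell to 6 when the floor was set at the 25th percentile, since fewer genes lie under a lower floor. The family median ran from −0.14 (quantile normalization) to 0.12 (floor at the 75th percentile, 10 measured genes), so its sign is not settled, and that of clade B from −0.30 to −0.04. The floor at the 75th percentile left no measured clade B gene. The list medians kept their sign except collagens (−0.07 to 0.13) and clearance (−0.01 to 0.08). Counts over all genes were 198 higher and 220 lower for a 25th percentile floor, 51 and 27 for a 75th percentile floor, 56 and 40 with log2(value + floor), 370 and 369 with 1.5-fold, and 20 and 22 with 3-fold. Members past 2-fold among other inhibitors and among collagens numbered 0 for a 75th percentile floor and also for log2(value + floor). Signal near the floor limits clade B, and 1 array per diet limits every value.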

Other observations

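A further 3 probe sets carry several serpin symbols, stood in no comparison and were named for no gene. Of these, 2 were measured, with log2 ratios of −0.11 and 0.05, and the other lay under the floor.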
